A study of Gallus gallus with 3 samples.

Results

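The cells described here are limb mesenchyme cells of the embryonic day 6 (E6) chicken forelimb that carry transcripts of HOXD12 and HOXD13, the Hox genes at the distal end of the HOXD cluster. Barcodes with at least 700 unique molecular identifiers (UMIs, 1 per captured mRNA copy) and at most 17% of UMIs from 8 mitochondrial genes were kept as cells. The cells were chosen by these measured UMIs: a kept cell was HOXD-positive when it held at least 1 UMI of PRRX1, a homeobox gene that marks limb mesenchyme, and at least 2 UMIs of HOXD12 and HOXD13 together. This gave 1070 HOXD-positive cells among 2309 PRRX1-positive cells and 3929 kept cells at E6, and among 30883 kept cells in the 3 libraries. They were set against 940 HOXD-negative cells, which had PRRX1 but no UMI of HOXD12 or HOXD13. The remaining 299 PRRX1-positive cells had 1 HOXD UMI and entered neither group.

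The study profiled cells of whole forelimbs from wild type chicken embryos at E4, E6 and E10. Limbs of 2, 3 and 3 embryos were pooled before library preparation, so each stage is 1 library of the 10x Chromium 3′ method. Without replicates, no p-value was computed, and every interval given is a 95% interval for counting error only. Levels are given as CPM, the number of copies of a gene among 1000000 UMIs pooled from all cells of a group.

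The distal part of the vertebrate limb, the autopod, forms the hand or foot and the digits. Genes of the 5′ ends of the HOXD and HOXA clusters pattern it, with HOXA13 and HOXD13 acting there together, whereas HOXA11 marks the segment above it. MEIS transcription factors and retinoic acid are known for their role in the proximal limb, and HAND2 acts on the posterior side upstream of Sonic hedgehog. Between the digit rays lies the interdigital mesenchyme, where BMP signals and MSX genes are active.

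HOXD-positive cells were deeper than the cells they were compared with. Their median was 3003.5 UMIs and 1420 genes, against 2259.5 UMIs and 1133 genes in HOXD-negative cells. A rule that asks for 2 UMIs takes deep cells more easily, so levels are given below as CPM, with the share of cells for some genes. A CPM is a level of the whole group, and many of the genes below had a UMI in a minority of its cells. The log2 ratio is that of the CPM in HOXD-positive cells over the CPM in HOXD-negative cells, so that 1 is 2-fold higher and -1 is 2-fold lower. HOXD12 gave 3298 UMIs in the HOXD-positive cells and HOXD13 gave 2132. A HOXD12 UMI was seen in 984 cells (92.0%), a HOXD13 UMI in 824 cells (77.0%) and both in 738 cells (69.0%). The number of HOXD UMIs per cell had a median of 4 and a highest value of 21, and the plot of cells by HOXD UMIs shows no gap at 2 UMIs.

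**Figure D1:**
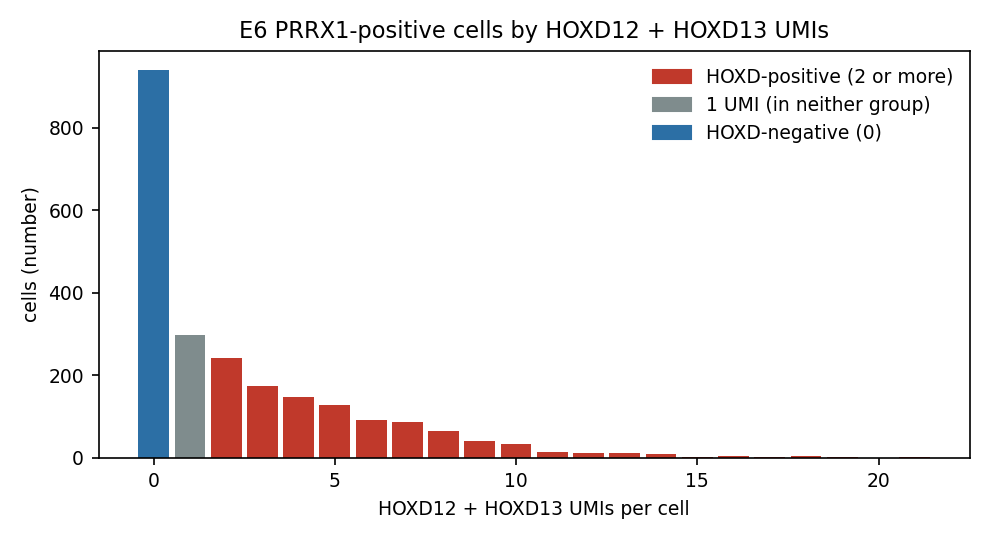
Number of E6 PRRX1-positive cells (vertical axis) by their UMIs of HOXD12 and HOXD13 together (horizontal axis), with HOXD-positive cells in red, cells with 1 UMI in grey and HOXD-negative cells in blue. The counts run from 940 cells at 0 and 299 at 1 to 243 at 2, with no gap at the threshold.

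Free RNA in the droplets can place a UMI in a cell that does not make the gene. Barcodes with 1 to 50 UMIs held 619 CPM of HOXD12 and HOXD13 together. The 187 kept cells without PRRX1 but with at least 2 UMIs of the muscle markers PAX7, MYF5, MYOD1 and MYOG held 29.4 CPM, or 4.75% of that level. Of these muscle cells, 3 reached the 2 HOXD UMIs asked of a HOXD-positive cell (1.60%, exact binomial interval 0.332% to 4.62%), at a median depth of 3353 UMIs. Among PRRX1-positive cells 46.3% reached it (44.3% to 48.4%), at a median depth of 2541 UMIs. The muscle cells were chosen to hold no UMI of PRRX1, itself a mesenchymal transcript. Muscle cells with more free mesenchymal RNA were thus left out more easily, and the HOXD values of the muscle cells can be too low.

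Cells just outside the threshold, with 1 HOXD UMI, and just inside it, with 2, are described by some of the genes. HOXD11 was at 62.3 CPM in cells with 0 HOXD UMIs, 136 CPM with 1, 164 CPM with 2, 161 CPM with 3 to 4 and 229 CPM with 5 or more. SMOC1 was at 22.7, 29.8, 74.3, 76.7 and 89.1 CPM in the same order. HOXD11 was thus highest in the cells with the most HOXD UMIs. The SMOC1 intervals overlapped from 2 UMIs upwards (54.6 to 98.8, 60.1 to 96.4 and 75.8 to 104 CPM). The cells with 1 UMI were nearer to those with 2 for HOXD11 and nearer to those with 0 for SMOC1. TFAP2B was at 21.8, 38.4, 74.3, 74.6 and 72.8 CPM, and HAND2 at 13.5, 32.7, 49.0, 36.8 and 39.8 CPM. These 2 genes thus did not rise further above 2 UMIs. TWIST2 was at 431, 436, 354, 281 and 159 CPM, and MEIS2 at 91.5, 129, 83.8, 53.6 and 17.4 CPM, both lowest in the cells with the most HOXD UMIs. The median depth of these cells was 2259.5, 2187, 2469, 2789 and 3321 UMIs, so depth moved with the number of HOXD UMIs. HINTW, a gene of the female W chromosome, moved with it too, at 407, 368, 300, 123 and 47.6 CPM. Embryo, sex and the number of HOXD UMIs cannot be told apart here.

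The label of autopod mesenchyme was checked against HOXA13 and MSX1, which the rule did not use. HOXA13 was at 272 CPM in HOXD-positive cells and 217 CPM in HOXD-negative cells, a log2 ratio of 0.32 (interval 0.16 to 0.48). With every cell thinned to 1500 UMIs and the rule applied again, the groups changed to 596 HOXD-positive and 808 HOXD-negative cells. The HOXA13 ratio was then -0.08, in a setting where both the depth and the groups changed. With the groups kept, 2 of 9 HOXA genes were above 0 after thinning, and the highest ratio among them was 0.27. MSX1 was at 362 CPM in HOXD-positive cells and 458 CPM in HOXD-negative cells (log2 ratio -0.34, interval -0.46 to -0.22). The direction of MSX1 was not the same in all settings, with a ratio of 0.57 in cells with a UMI of the W-linked gene HINTW and 0.49 without the PRRX1 requirement. HOXA13 had ratios of 0.87 and 1.07 in the same settings. Without the PRRX1 requirement there were 1354 HOXD-positive and 2057 HOXD-negative cells. These sets include cells without PRRX1, such as muscle cells, so the values of that setting are not for mesenchyme alone. Over all PRRX1-positive cells neither marker was 2-fold apart, and the HOXD-negative cells held both. The cells are therefore called by their rule and not as the autopod. Muscle cells without PRRX1 had 40.2 CPM of HOXA13 and 12.4 CPM of MSX1. PRRX1 itself differed little, at 1457 CPM in HOXD-positive cells and 1438 CPM in HOXD-negative cells.

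A HOXA13 UMI was found in 45.3% of HOXD-positive cells (42.3% to 48.4%) and 29.8% of HOXD-negative cells (26.9% to 32.8%). The share was 11.8% in the muscle cells. Thinning to 1500 UMIs with the groups kept left out 81 HOXD-positive, 165 HOXD-negative and 9 muscle cells. The HOXA13 shares were then 27.8%, 22.6% and 6.18% of the cells.

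Within the HOXD cluster, the ratio was positive next to HOXD12 and negative at the other end. The nearest neighbour, HOXD11, was at 198 CPM in HOXD-positive cells and 62.3 CPM in HOXD-negative cells (log2 ratio 1.67, interval 1.40 to 1.94). HOXD10 was at 24.9 and 28.3 CPM in the same order, and HOXD9 at 10.1 and 12.2 CPM, with intervals of the ratio that held 0. HOXD8 was lower in HOXD-positive cells, at 32.3 CPM against 66.2 CPM in HOXD-negative cells (log2 ratio -1.03, but 0.13 in cells with a HINTW UMI), and so was HOXD4, at 12.2 CPM against 21.8 CPM (log2 ratio -0.84). Of the 5 other HOXD genes with at least 50 UMIs, HOXD11 was thus the 1 with a positive ratio. The thinned shares of cells with HOXD11 were 23.2% in HOXD-positive cells, 9.03% in HOXD-negative cells and 1.12% in muscle cells.

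Of the 9 HOXA genes with at least 50 UMIs, 1 (HOXA13) was above 0 and none was 2-fold higher or lower, beside 0.731% higher and 1.71% lower among all genes. The median log2 ratio of the list was -0.40, beside 0.018 for all 7657 genes. HOXA11, of the middle limb segment, was at 131 CPM in HOXD-positive cells and 163 CPM in HOXD-negative cells. HOXA10 was at 62.3 and 94.5 CPM, and HOXA9 at 231 and 305 CPM, in the same order. The 12 HOXB and HOXC genes found in the files, of 13 listed, were all below 50 UMIs.

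**Figure D2:**
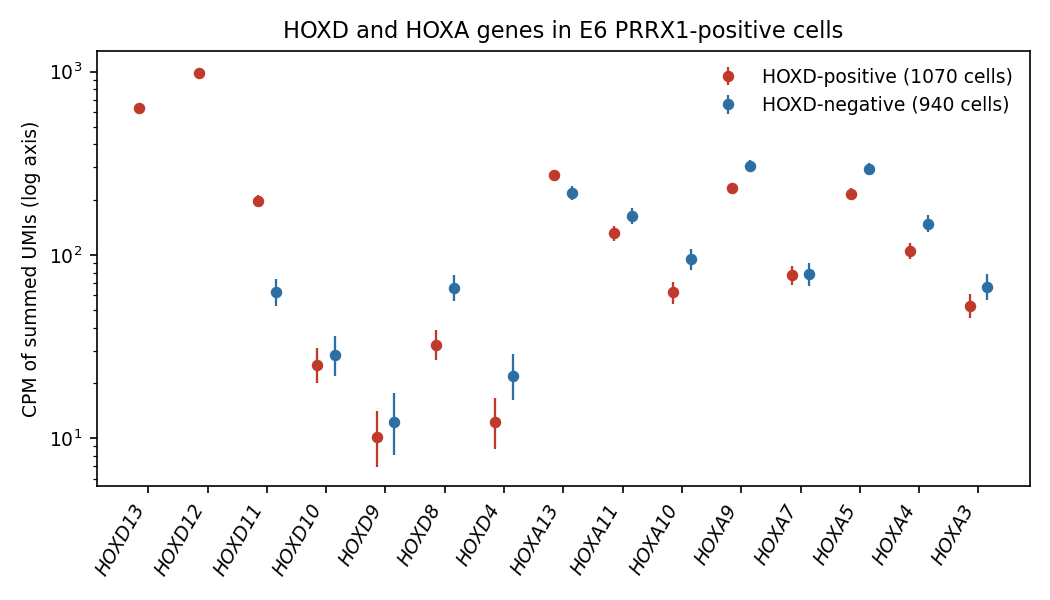
Level of HOXD and HOXA genes in CPM of summed UMIs (vertical log axis) in HOXD-positive cells (red, left) and HOXD-negative cells (blue, right), with exact Poisson intervals. HOXD11 stands higher in HOXD-positive cells (198 against 62.3 CPM) and HOXD8 lower (32.3 against 66.2 CPM), while HOXD12 and HOXD13 are 0 in HOXD-negative cells by the rule and are not drawn there.

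Over all genes with at least 50 UMIs in both groups together, 56 of 7657 were at least 2-fold higher in HOXD-positive cells (0.731%) and 131 were at least 2-fold lower (1.71%), with HOXD12 and HOXD13 left out. The widest differences among genes with a name and at least 100 UMIs are given next, and the plot of ratio by level shows where they lie.

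Among transcription factors and patterning genes, TFAP2B, an AP-2 factor, was at 73.6 CPM in HOXD-positive cells and 21.8 CPM in HOXD-negative cells (log2 ratio 1.76, interval 1.31 to 2.22). HAND2, the posterior limb factor, was at 40.7 CPM in HOXD-positive cells and 13.5 CPM in HOXD-negative cells (log2 ratio 1.59, interval 1.02 to 2.20). A HAND2 UMI was seen in 10.9% of HOXD-positive cells and 2.55% of HOXD-negative cells, or 5.86% and 1.81% after thinning, against 1 of the 187 muscle cells. TFAP2B is also a neural crest gene, and a UMI of it was seen in 13.6% of HOXD-positive cells and 3.62% of HOXD-negative cells. After thinning to 1500 UMIs its ratio was 1.98 with the groups kept and 0.84 with the rule applied again.

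Of secreted and signalling proteins, SMOC1, an extracellular calcium-binding protein known to modulate BMP signalling, led the list at 82.8 CPM in HOXD-positive cells and 22.7 CPM in HOXD-negative cells (log2 ratio 1.87, interval 1.44 to 2.33). CYTL1, a secreted protein known from mammalian cartilage, was at 233 CPM in HOXD-positive cells and 89.3 CPM in HOXD-negative cells (log2 ratio 1.38). RDH10, which makes the retinaldehyde from which retinoic acid is formed, was at 159 CPM in HOXD-positive cells and 68.8 CPM in HOXD-negative cells (log2 ratio 1.21). MAPK10, a JNK kinase, had a log2 ratio of 1.73, and NEDD9, a scaffold of adhesion signalling, one of 1.19. At full depth, a SMOC1 UMI was seen in 14.4% of HOXD-positive cells and 4.26% of HOXD-negative cells. The shares were 33.9% and 12.1% for CYTL1 and 15.3% and 7.23% for RDH10, in the same order.

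LDHA, the lactate dehydrogenase of glycolysis, was at 262 CPM in HOXD-positive cells and 92.8 CPM in HOXD-negative cells (log2 ratio 1.5, interval 1.28 to 1.72). GAP43, best known from growing axons, was at 130 and 47.9 CPM in the same order (log2 ratio 1.44). Shares of cells with a UMI were 39.3% and 16.7% for LDHA and 20.7% and 7.66% for GAP43 in that order. CENPW, a centromere protein, and DPYSL4, of the dihydropyrimidinase-like family, had log2 ratios of 1.17 and 1.13. CENPW was at 0.20 in cells with a HINTW UMI, and DPYSL4 at 0.20 and NEDD9 at 0.66 in cells with a HOXA13 UMI.

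At the other end, the urea transporter SLC14A1 was at 5.34 CPM in HOXD-positive cells and 52.7 CPM in HOXD-negative cells (log2 ratio -3.30, interval -4.11 to -2.58). The homeobox genes DLX6 and DLX5 were also lower in HOXD-positive cells. DLX6 was at 6.53 CPM in HOXD-positive cells and 37.0 CPM in HOXD-negative cells (log2 ratio -2.50), and DLX5 at 62.6 CPM and 164 CPM in the same order (log2 ratio -1.39, interval -1.64 to -1.14). LHX9, a LIM homeobox gene of distal limb mesenchyme, was at 8.31 CPM in HOXD-positive cells and 44.0 CPM in HOXD-negative cells (log2 ratio -2.40, interval -3.06 to -1.79). Few cells of either group had a UMI of these genes. The shares in HOXD-positive and HOXD-negative cells were 1.31% and 7.77% for SLC14A1, 2.06% and 7.98% for DLX6, and 2.34% and 9.57% for LHX9.

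Matrix genes followed. POSTN, the matrix protein periostin, was at 18.7 CPM in HOXD-positive cells and 63.6 CPM in HOXD-negative cells (log2 ratio -1.77), with -0.75 in cells of 2000 to 4000 UMIs only. HAPLN1, the hyaluronan link protein of cartilage matrix, was at 9.20 and 34.0 CPM in the same order (log2 ratio -1.89), and RELN, the secreted protein reelin, at 11.9 and 40.5 CPM (log2 ratio -1.77). CYP1B1, a cytochrome P450 enzyme, was at 14.8 and 51.4 CPM (log2 ratio -1.79, but -0.62 in cells with a HOXA13 UMI), and HMP19 was at 6.23 and 35.3 CPM (log2 ratio -2.50). PTN, the growth factor pleiotrophin, was chosen after its values were seen, and was at 323 CPM in HOXD-positive cells and 1084 CPM in HOXD-negative cells (log2 ratio -1.75).

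C1QTNF3 and RBM24 were lower in HOXD-positive cells with log2 ratios of -2.44 and -1.76. RBM24 is an RNA-binding protein of muscle, and was at 25.5 CPM in HOXD-positive cells and 86.7 CPM in HOXD-negative cells. A UMI of PAX7, MYF5, MYOD1 or MYOG was present in 38 HOXD-positive cells (3.55%) and 74 HOXD-negative cells (7.87%). Of the 9 skeletal muscle genes with at least 50 UMIs, 7 were at least 2-fold lower in HOXD-positive cells and none higher, beside 1.71% lower and 0.731% higher among all genes. Their whole list of 15 genes found in the files summed to 249 CPM in HOXD-positive cells and 525 CPM in HOXD-negative cells. Without the cells that had such a UMI, the ratios of C1QTNF3 and RBM24 were -2.37 and -1.18. RBM24 was at -0.34 in cells with a HINTW UMI.

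The listed neural crest genes summed to 77.2 CPM in HOXD-positive cells and 29.6 CPM in HOXD-negative cells, of which TFAP2B alone was 73.6 and 21.8 CPM. The listed endothelial genes summed to 40.1 CPM in HOXD-positive cells and 35.3 CPM in HOXD-negative cells, blood genes to 47.5 and 47.1 CPM, ectoderm genes to 41.0 and 51.8 CPM and macrophage genes to 3.86 and 2.61 CPM in the same order. CDH5 and TIE1 of endothelium and C1QA, C1QB and C1QC of macrophages were at 0 in both. Cells with at least 2 UMIs of muscle, blood, endothelial, ectoderm, neural crest or macrophage markers were also left out. This kept 1022 HOXD-positive and 879 HOXD-negative cells, with 58 of 7488 genes 2-fold higher and 131 2-fold lower. All 34 of the named genes past 2-fold over all cells kept their direction, and 33 stayed past 2-fold. Many of these genes were chosen by their ratios in the same cells, and most of the cells were kept. The kept direction therefore says little about other lineages. The part of cells with fewer such UMIs was not tested.

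**Figure D3:**
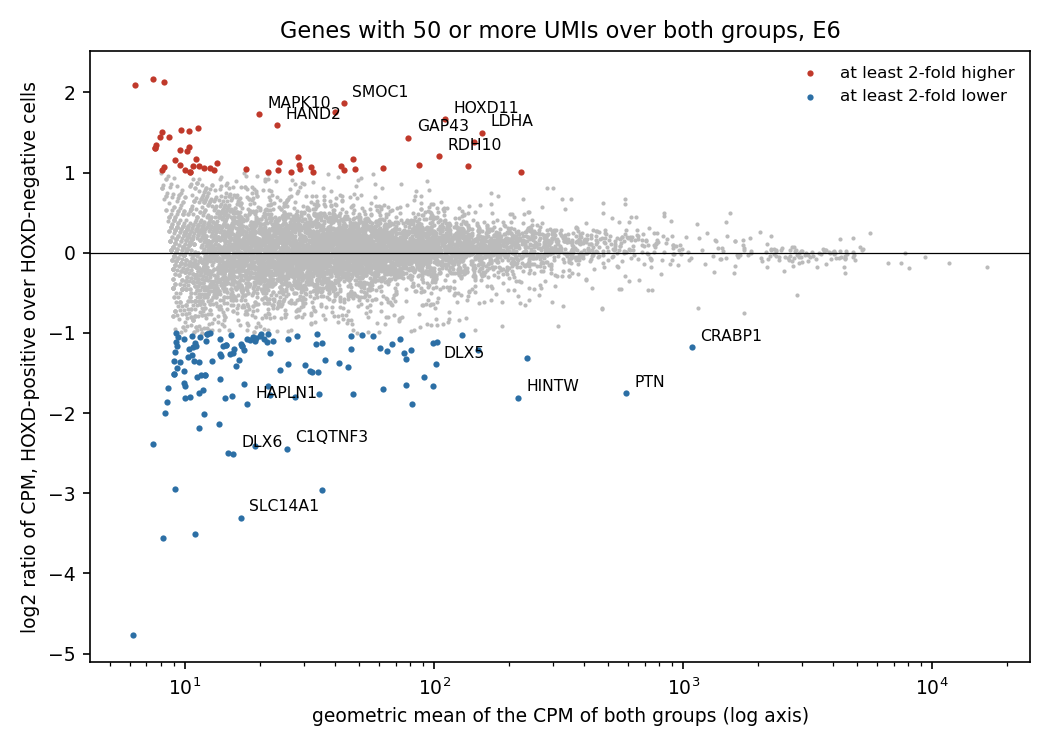
Log2 ratio of CPM, HOXD-positive over HOXD-negative cells (vertical axis), against the geometric mean of both levels in CPM (horizontal log axis) for 7657 genes at E6. The 56 genes at least 2-fold higher (red) and the 131 at least 2-fold lower (blue) are coloured by the same fold at every level. The spread of ratios widens at low levels, and with at least 200 UMIs the genes numbered 17 and 33. SMOC1, HOXD11 and LDHA are among the higher genes.

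The listed distal limb genes had members in both directions. Of 14 with at least 50 UMIs, TFAP2B, HAND2 and JAG1 were at least 2-fold higher in HOXD-positive cells. DLX5, DLX6, LHX9 and SALL4 were at least 2-fold lower. Among all genes, 0.731% were 2-fold higher and 1.71% lower. JAG1, a Notch ligand, was at 15.7 CPM in HOXD-positive cells and 6.54 CPM in HOXD-negative cells. MSX2, a BMP target like MSX1, was at 240 CPM in HOXD-positive cells and 366 CPM in HOXD-negative cells (log2 ratio -0.61), and the zinc finger gene SALL1 was at 56.4 and 85.8 CPM in the same order (log2 ratio -0.61). The median of the list was -0.47, beside 0.018 for all genes.

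Of 13 proximal limb genes with at least 50 UMIs, none was 2-fold higher and 3 were 2-fold lower, beside 0.731% higher and 1.71% lower among all genes. Among cells with a HOXA13 UMI in both groups, 1 of 8 proximal genes was 2-fold higher, 0 were lower and 5 were above 0. Of all 5720 genes with at least 50 UMIs in these cells, 83 were 2-fold higher, 85 lower and 3248 above 0. CRABP1, a cellular retinoic acid binding protein, was at 720 CPM in HOXD-positive cells and 1630 CPM in HOXD-negative cells (log2 ratio -1.18, interval -1.25 to -1.11). MEIS2 was at 40.1 and 91.5 CPM in the same order (log2 ratio -1.19), and the homeobox gene SHOX at 10.4 and 26.1 CPM (log2 ratio -1.33). TBX5, the forelimb T-box gene, differed little, at 483 CPM in HOXD-positive cells and 515 CPM in HOXD-negative cells. The retinoid enzymes ALDH1A2 and ALDH1A3 had log2 ratios of -0.01 and 0.31, so that of 10 retinoid genes RDH10 was past 2-fold upwards and CRABP1 downwards.

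The signalling lists are read beside 0.731% of all genes 2-fold higher and 1.71% lower. Of 13 FGF pathway genes, 2 were 2-fold lower, namely the ligand FGF18 (11.3 CPM in HOXD-positive cells and 24.8 CPM in HOXD-negative cells) and FGFR4, a receptor of muscle progenitors (log2 ratio -1.42). FGF10, the mesenchymal ligand that acts on the apical ridge, was at 64.7 CPM in HOXD-positive cells and 36.2 CPM in HOXD-negative cells (log2 ratio 0.84). Of 15 WNT genes, RSPO3, a secreted enhancer of WNT signalling, was past 2-fold upwards, with 48 UMIs in HOXD-positive cells and 12 in HOXD-negative cells. WNT5A, the ligand of the distal limb, was at 593 CPM in HOXD-positive cells and 386 CPM in HOXD-negative cells (log2 ratio 0.62, interval 0.51 to 0.74). The WNT effectors LEF1 and TCF7 had log2 ratios of 0.88 and 0.92.

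Of 16 BMP genes, the antagonists CHRDL1 and FST were 2-fold lower in HOXD-positive cells, while BMP2 was at 81.6 CPM in HOXD-positive cells and 56.2 CPM in HOXD-negative cells (log2 ratio 0.54). None of 7 SHH pathway genes passed 2-fold, with PTCH1 at a log2 ratio of 0.18 and the co-receptor CDON at -0.82. None of 8 Eph receptor and ephrin genes passed it either. SHH itself had 2 UMIs in HOXD-positive cells and 0 in HOXD-negative cells.

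Of the genes of differentiated connective tissues, 1 of 12 in cartilage, 3 of 11 in tendon and 4 of 13 in irregular connective tissue had a ratio above 0, beside 4047 of all 7657 genes. Among cells with a HOXA13 UMI in both groups these were 2 of 7, 4 of 8 and 6 of 10, with medians of -0.57, -0.01 and 0.06. Of all 5720 genes in these cells, 3248 were above 0, with a median of 0.055. The counts past 2-fold in these lists are read beside 0.731% of all genes 2-fold higher and 1.71% lower. Of the 12 cartilage genes, CYTL1 was 2-fold higher, HAPLN1 and BARX1 were 2-fold lower, and the median log2 ratio was -0.56. SOX9, the master regulator of cartilage, was at 40.4 CPM in HOXD-positive cells and 45.3 CPM in HOXD-negative cells, and COL9A1, a cartilage collagen, at 10.4 and 19.6 CPM in the same order. Of 11 tendon genes only COL14A1 passed 2-fold, downwards, and SCX, the tendon progenitor factor, was at 87.0 CPM in HOXD-positive cells and 72.8 CPM in HOXD-negative cells. Of 13 irregular connective tissue genes only POSTN passed it, and TWIST2 was at 230 CPM in HOXD-positive cells and 431 CPM in HOXD-negative cells (log2 ratio -0.91), but its ratio was 0.43 in cells with a HINTW UMI. Its relative TWIST1, a factor of undifferentiated mesenchyme, was higher in HOXD-positive cells, at 722 CPM against 474 CPM in HOXD-negative cells (log2 ratio 0.61). None of 9 genes of interdigital cell death passed 2-fold.

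Cell cycle genes were modestly and almost uniformly higher. Of 34 S phase genes 32 were above 0, with a median log2 ratio of 0.29, and of 40 G2/M genes 38 were above 0, with a median of 0.35. Of these, 1 S phase gene and 0 G2/M genes were 2-fold higher, beside 0.731% of all genes. Of all 7657 genes, 4047 were above 0. TOP2A, a topoisomerase of dividing cells, was at 567 CPM in HOXD-positive cells and 402 CPM in HOXD-negative cells (log2 ratio 0.50, interval 0.38 to 0.61), but its ratio was -0.58 in cells with a HINTW UMI. In cells of 2000 to 4000 UMIs only, 23 of 29 S phase and 34 of 38 G2/M genes were above 0, with medians of 0.21 and 0.32. Of all 6435 genes in that setting, 3420 were above 0, with a median of 0.024.

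Because HOXD-negative cells held distal markers, they were split by HOXA13 after the data had been seen. Of the 940 cells, 280 had a HOXA13 UMI and 660 had none, at median depths of 2646.5 and 2112.5 UMIs. Of 6942 genes, 167 were 2-fold higher (2.41%) and 97 were 2-fold lower (1.4%) in HOXD-positive cells than in HOXD-negative cells with HOXA13. MSX1 was at 362 CPM in HOXD-positive cells, 886 CPM in HOXD-negative cells with HOXA13 and 226 CPM in those without. DLX5 was at 62.6, 275 and 104 CPM in the same order, and LHX9 at 8.31, 65.7 and 32.3 CPM. MSX2 was at 240, 684 and 194 CPM. The HOXD-positive cells were not split here, and 485 of the 1070 had a HOXA13 UMI. Taken whole, they were between both HOXD-negative groups for MSX1 and MSX2, and below both for DLX5 and LHX9.

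Other genes were lowest in the HOXD-negative cells with HOXA13. HOXD11 was at 198 CPM in HOXD-positive cells, 16.1 CPM in HOXD-negative cells with HOXA13 and 87.3 CPM in those without. HAND2 was at 40.7, 6.20 and 17.5 CPM in the same order, and SMOC1 at 82.8, 17.4 and 25.5 CPM. MEIS2 was at 40.1, 13.6 and 134 CPM, and CRABP1 at 720, 667 and 2153 CPM. The level of HOXD11 in the HOXA13 cells without HOXD12 or HOXD13 was thus a small part of that in HOXD-positive cells. The lower MEIS2 and CRABP1 level of the HOXD-positive cells, taken whole, was seen against the cells without HOXA13 only. Cells without HOXA13 in both groups were not set against each other.

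When only cells with a HOXA13 UMI were taken, there were 485 HOXD-positive and 280 HOXD-negative cells, at median depths of 3511 and 2646.5 UMIs. HOXD11 then had a log2 ratio of 3.54 (interval 2.75 to 4.47), SMOC1 2.54, HAND2 2.54, BMP2 1.46, SCX 1.42 and TFAP2B 1.20. LHX9 was at -2.60, DLX5 at -1.70, MSX2 at -1.04, SALL1 at -1.03 and MSX1 at -0.94. RDH10, at 1.21 over all cells, was at 0.38 here, and WNT5A at 0.21. The genes MEIS2, HAPLN1, FGF18 and CHRDL1, lower in HOXD-positive cells when all cells were taken, had ratios of 0.42, 0.10, 1.38 and 0.034. Among cells that share HOXA13, HOXD-positive cells thus had more HOXD11, SMOC1 and HAND2 and less LHX9, DLX5 and MSX2.

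**Figure D4:**
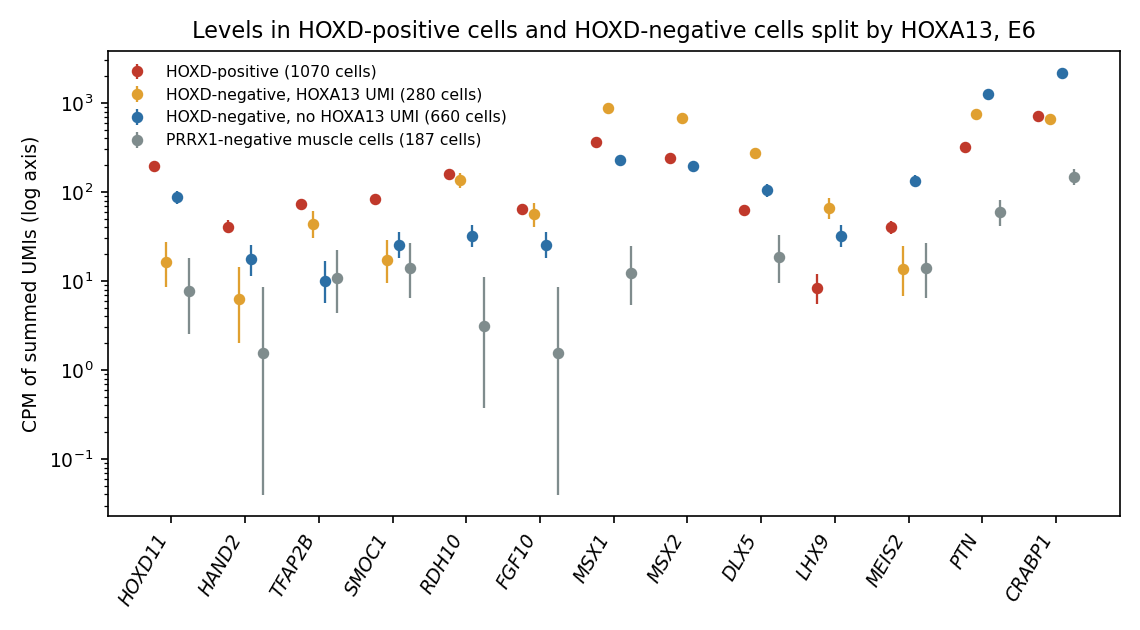
Level in CPM of summed UMIs (vertical log axis, exact Poisson intervals) of 13 genes in HOXD-positive cells (red), HOXD-negative cells with a HOXA13 UMI (yellow), HOXD-negative cells without one (blue) and muscle cells without PRRX1 (grey). MSX1, MSX2, DLX5 and LHX9 are highest in the yellow group, MEIS2 and CRABP1 in the blue group, and HOXD11, HAND2 and SMOC1 in HOXD-positive cells. Groups at 0 are not drawn, and the HOXD-positive cells are not split by HOXA13.

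HOXD-positive cells also differed among themselves. The 824 cells with a HOXD13 UMI were set against the 246 that met the rule through HOXD12 alone, at median depths of 3188 and 2508 UMIs. Of 6442 genes with at least 50 UMIs, 99 were at least 2-fold higher with HOXD13 (1.54%) and 99 at least 2-fold lower (1.54%). SOX9 was at 47.0 CPM in cells with HOXD13 and 13.4 CPM in cells without (log2 ratio 1.81, interval 0.84 to 2.97). RDH10 was at 180 and 73.1 CPM in the same order (log2 ratio 1.30), SMOC1 at 92.99 and 41.8 CPM (log2 ratio 1.15), and MSX1 at 401 and 207 CPM (log2 ratio 0.95).

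MEIS2 was at 20.7 CPM in cells with HOXD13 and 118 CPM in cells without (log2 ratio -2.51, interval -3.03 to -1.99). CRABP1 was at 535 and 1465 CPM in the same order (log2 ratio -1.45), and COL6A3, a collagen of connective tissue, at 37.8 and 125 CPM (log2 ratio -1.73). EMX2, a homeobox gene of the proximal limb, was at 30.7 and 110 CPM (log2 ratio -1.84). HOXD11 was similar, at 190 CPM in cells with HOXD13 and 230 CPM in cells without. HAND2 was at 35.2 and 62.7 CPM in the same order (log2 ratio -0.83), so that it did not follow HOXD13. The cells with HOXD12 alone were thus the part of the HOXD-positive cells with more MEIS2, CRABP1 and EMX2 and less SOX9.

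Cells with clear SOX9 were rare. At least 2 SOX9 UMIs were found in 24 HOXD-positive cells, and 972 had none, at median depths of 3910 and 2930.5 UMIs. Cells with 1 SOX9 UMI entered neither set. In the cells with SOX9, FRZB, a secreted WNT inhibitor of early cartilage, was at 370 CPM, against 113 CPM in those without (log2 ratio 1.72, interval 1.16 to 2.23). MSX2 was at 76.1 CPM in cells with SOX9 and 247 CPM in cells without (log2 ratio -1.70), and TFAP2B had 1 UMI in the cells with SOX9 (log2 ratio -2.83, interval -8.14 to -0.34). The SOX9 cells held 34 UMIs of FRZB and 7 of MSX2, so these values rest on few counts. The share of all genes past 2-fold was not counted for this split.

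Cells of several embryos were mixed in the library, and HINTW, a gene of the female W chromosome, differed between the groups. A HINTW UMI was found in 75 HOXD-positive cells (7.01%, 5.55% to 8.71%) and 129 HOXD-negative cells (13.7%, 11.6% to 16.1%). Its level was 116 CPM in HOXD-positive cells and 407 CPM in HOXD-negative cells (log2 ratio -1.81), and it was 66.3 CPM in HOXD-positive cells with HOXD13 and 318 CPM in those without. The sex of the embryos is not in the labels. Embryo, sex and cell group cannot be told apart for these cells. After thinning, the share with a HINTW UMI was 5.56% in HOXD-positive cells and 13.2% in HOXD-negative cells. Genes on the Z chromosome had a median log2 ratio of 0.026 (300 genes), beside 0.017 on other named chromosomes (6037 genes).

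Among cells with no HINTW UMI, 995 HOXD-positive and 811 HOXD-negative, the log2 ratios were 2.15 for SMOC1, 1.81 for HOXD11, 1.64 for HAND2, 1.62 for TFAP2B, -2.59 for LHX9, -1.48 for DLX5, -1.81 for PTN and -1.16 for MEIS2. Among the cells with a HINTW UMI, MEIS2 was at 261 CPM in HOXD-positive cells and 343 CPM in HOXD-negative cells, HAND2 at 59.0 and 19.2 CPM, SMOC1 at 80.1 and 48.1 CPM, and RDH10 at 42.2 and 38.5 CPM in the same order. HOXD11 was at 148 and 92.97 CPM (log2 ratio 0.67) and DLX5 at 38.0 and 64.1 CPM (log2 ratio -0.76) in the same order. HOXD11, SMOC1, HAND2 and DLX5 thus had the same direction in both, but HOXD11, SMOC1, DLX5 and RDH10 were past 2-fold only in the cells with no HINTW UMI. TWIST2 and TOP2A turned direction in the cells with a HINTW UMI, with ratios of 0.43 and -0.58. The 75 and 129 cells with a HINTW UMI give few counts, and the difference between both sets of cells was not tested.

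The same rule was applied to the E4 and E10 libraries. It took 12.8% of PRRX1-positive cells at E4 (586 cells, 11.8% to 13.8%), 46.3% at E6 and 3.83% at E10 (218 cells, 3.34% to 4.36%). The median depth of the PRRX1-positive cells was 3710, 2541 and 1328 UMIs in the same order, and stage and library cannot be told apart. HOXD12 in the HOXD-positive cells was at 541 CPM at E4, 979 CPM at E6 and 925 CPM at E10, and HOXD13 at 144, 633 and 544 CPM, in cells that the rule chose by these genes.

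At E4 the distal Hox genes of both clusters were higher in the same cells, whose median depth was 5280 UMIs, against 3493 in HOXD-negative cells. HOXA13 had 39 UMIs in HOXD-positive cells and 4 in HOXD-negative cells at E4 (log2 ratio 5.40, interval 3.93 to 7.34). HOXA11 was at 128 CPM in HOXD-positive cells and 15.1 CPM in HOXD-negative cells at E4 (log2 ratio 3.08, interval 2.84 to 3.33), HOXD11 had a log2 ratio of 3.55 and SALL1 one of 2.48. At E6 the same ratios were 0.32 for HOXA13, -0.31 for HOXA11, 1.67 for HOXD11 and -0.61 for SALL1. BMP2 had a ratio of 2.68 at E4 and 0.54 at E6. The difference between 2 single libraries was not tested.

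Of the genes with at least 50 UMIs at both stages, 7544 in all, 49 were 2-fold higher at E6 and 69 at E4, and 3 were higher at both, namely HOXD11, HAND2 and CYTL1. These are 6.12% of the E6 genes and 4.35% of the E4 genes, beside 0.915% of the 7544 genes that were 2-fold higher at E4. Another 7 of the 49 were 2-fold lower at E4 (14.3%), beside 2.44% of the 7544 genes that were 2-fold lower at E4. Of 100 genes 2-fold lower at E6 and 184 at E4, 34 were lower at both (34.0% and 18.5%), among them PTN, POSTN, LHX9 and HAPLN1, beside 2.44% of the 7544 genes that were 2-fold lower at E4. Another 5 of the 100 were 2-fold higher at E4 (5.0%), beside 0.915% of the 7544 genes. Over all 9215 genes with at least 50 UMIs at E4, 1.23% were 2-fold higher and 4.17% lower in HOXD-positive cells. HAND2 had log2 ratios of 1.41, 1.59 and 1.04 at E4, E6 and E10, and HOXD11 of 3.55, 1.67 and 1.24, the HAND2 interval at E10 (-0.07 to 1.98) holding 0.

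**Figure D5:**
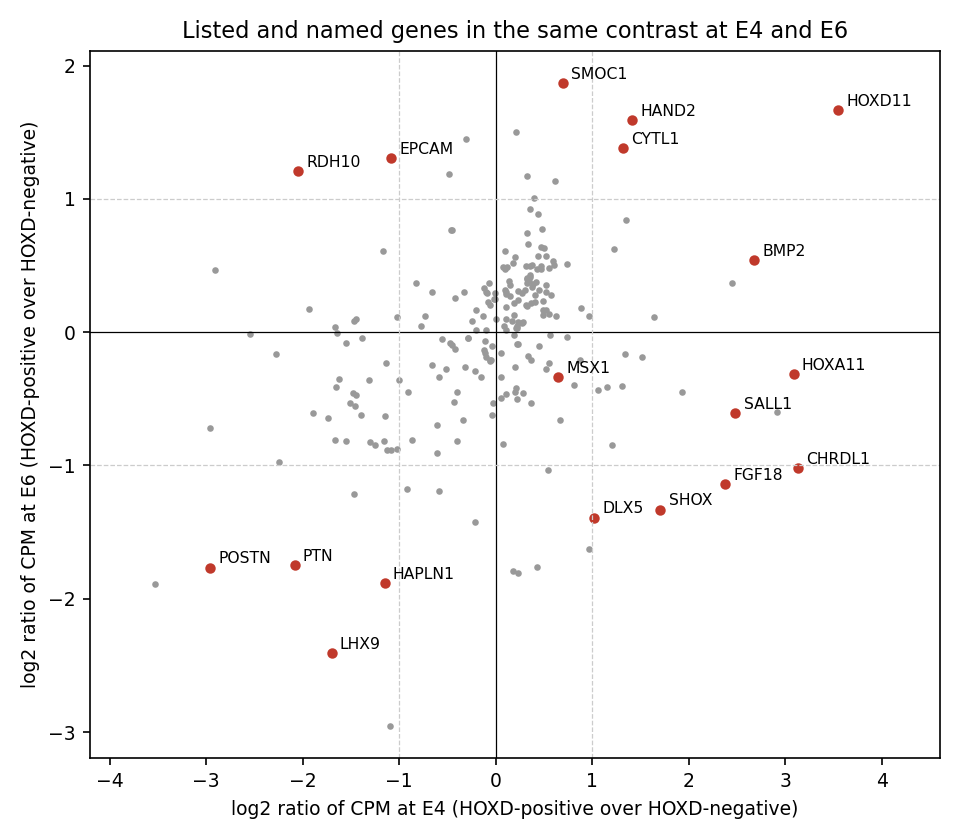
Log2 ratio of CPM, HOXD-positive over HOXD-negative PRRX1-positive cells, at E6 (vertical axis) against E4 (horizontal axis) for 233 listed and named genes with at least 50 UMIs at each stage, with dashed lines at 2-fold. HOXD11, HAND2 and CYTL1 are past 2-fold upwards at both stages, PTN and POSTN downwards at both, and DLX5, SHOX, FGF18 and CHRDL1 upwards at E4 and downwards at E6.

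At E10 the 218 cells were shallow, with a median of 1455.5 UMIs. Of 8371 genes, 3.14% were 2-fold higher and 5.97% 2-fold lower in HOXD-positive cells. HOXA13 was at 47.2 CPM in HOXD-positive cells and 43.1 CPM in HOXD-negative cells at E10 (log2 ratio 0.13, interval -0.67 to 0.83), and HOXA11 at 139 and 85.5 CPM in the same order (log2 ratio 0.70).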

How the data were processed

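Whole forelimbs of 2 (E4), 3 (E6) and 3 (E10) embryos were dissociated with collagenase, pooled by stage and sequenced as single cells without sorting. The authors deposited raw UMI counts per gene and barcode, made with Cell Ranger 3.0.2 and STAR on GRCg6a per the file headers and the submitters' processing notes, with no cell filter. Depth per library was 22765180 (E4), 15004113 (E6) and 46497874 UMIs (E10). At E6, 4237 barcodes had at least 700 UMIs and 308 were past the mitochondrial limit.

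Doublets were not removed in the values given. Of the E6 kept cells, 12 share a barcode with an E4 cell and 29 with an E10 cell, and 11 HOXD-positive cells do so. UMIs were summed per group, and the log2 ratio of CPM has an exact conditional binomial interval. CPM have exact Poisson and shares exact binomial (Clopper-Pearson) intervals at 95%. A group at 0 was set to 3 counts over the group. Counts of genes used a fold of 2 and at least 50 UMIs over both groups. Thinning drew 1500 UMIs of each cell without replacement. Named genes are HOXD12, HOXD13, MSX1, PRRX1, listed genes, and the 12 highest and 12 lowest log2 ratios among named genes with at least 100 UMIs. Some of these are not reported here. The members and lists were chosen with earlier results of these data known.

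HOXA13 and C1QTNF3 were matched by Ensembl identifier, and MEIS2, CRABP1, HINTW, LHX2 and SNORC stand in the files under synonyms. Chromosomes of genes were looked up by name in the RefSeq table of GRCg7b, another assembly, and no coordinates were used. The ratios and intervals were run on simulated independent Poisson counts per gene, the model that the intervals assume. That run checks the computation only and does not cover the spread of counts between cells. Sums and intervals were computed with scipy 1.17.1 and pandas 2.3.3 in Python 3.11.15, and doublet scores with Scrublet in scanpy 1.11.5. There were 18 alternatives chosen at the start and 4 added after the data had been seen, 2 by HINTW, 1 by HOXA13 and 1 by muscle markers.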

Additional observations from a re-analysis of the deposited data

Results flagged for a closer look

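With the same rule at E4 and E6, 7 genes 2-fold higher at E6 were 2-fold lower at E4, and 5 lower at E6 were higher at E4, among 7544 genes with at least 50 UMIs at each stage. The 6 of them that were listed or named are given here. Each stage is 1 library, so the difference was not tested, and the genes are given as values. DLX5 had a log2 ratio of -1.39 at E6 and 1.02 at E4, and SHOX one of -1.33 at E6 and 1.70 at E4. FGF18 was at -1.14 at E6 and 2.37 at E4, and CHRDL1, a BMP antagonist, at -1.02 at E6 and 3.13 at E4. RDH10 went the other way, with 1.21 at E6 and -2.05 at E4. EPCAM, an epithelial adhesion gene, was at 1.31 at E6 and -1.08 at E4 on few counts, 40 UMIs in HOXD-positive cells and 11 in HOXD-negative cells at E6 and 6 and 55 at E4, and its E4 interval of -2.59 to 0.13 holds 0. FGF18 and CHRDL1 did not keep their E6 direction among cells with a HOXA13 UMI, at 1.38 and 0.034. In those cells FGF18 had fewer than 50 UMIs over both groups, and CHRDL1 was near 0.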

How the results depend on the processing

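The log2 ratios of 53 genes were recomputed under 18 alternatives that change cells or scaling, and the counts of genes under all 22. The share of PRRX1-positive cells that were HOXD-positive (46.3%) was 59.3% with at least 1 HOXD UMI, 35.8% with at least 3 and 32.0% with at least 1 UMI of each gene. It was 35.0% after thinning to 1500 UMIs with the rule applied again, 49.2% in cells of 2000 to 4000 UMIs, 30% in cells with a HINTW UMI and 56.9% in cells with a HOXA13 UMI. Without the PRRX1 requirement, 34.5% of all 3929 kept cells were HOXD-positive, a share of a wider set of cells. The genes 2-fold higher and lower (56 and 131) numbered 1431 and 2475 with no minimum of UMIs, 17 and 33 with at least 200 UMIs, 296 and 462 at a fold of 1.5, 8 and 38 at a fold of 3, 36 and 85 after thinning, and 7 and 14 in cells with a HINTW UMI, where 1864 genes were tested. Genes 2-fold lower numbered 274 without the PRRX1 requirement and 85 in cells with a HOXA13 UMI, where the higher genes made up 49.4% of those past 2-fold, against 29.9% over all cells. Of the thinned genes, 17 of the 36 higher and 36 of the 85 lower were among the 56 and 131.

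Ratios past 2-fold that changed sign were those of HAPLN1 (0.10), MEIS2 (0.42), FGF18 (1.38) and CHRDL1 (0.034) among cells with a HOXA13 UMI, HOXD8 (0.13) among cells with a HINTW UMI, and EPCAM (-0.17) without the PRRX1 requirement. Of the smaller ratios, HOXA13 (-0.08), TFAP2A (-0.41) and HOXD10 (0.024) changed sign after thinning, MSX1 (0.49) and MSX2 (0.20) without the PRRX1 requirement, HOXD10 (0.17) and HOXD9 (0.36) in cells of 2000 to 4000 UMIs, MSX1 (0.57), SALL1 (0.13), TWIST2 (0.43) and TOP2A (-0.58) in cells with a HINTW UMI, and HOXA13 (-0.24) and HOXD10 (1.69) in cells with a HOXA13 UMI. PRRX1 (0.018) was near 0 and took either sign. The cause was not tested. Over the 18 alternatives, SMOC1 ranged between 0.74 and 2.54, HOXD11 between 0.67 and 3.54, HAND2 between 1.18 and 2.54 and DLX5 between -1.81 and -0.69. Removing the 123 cells with the highest Scrublet doublet scores left 58 and 144 genes. Median-of-ratios scaling sets the median of all genes to 0 by construction (0.018 before), and gave 50 genes 2-fold higher and 141 lower.

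No paired analysis was possible because each stage is 1 library, and for the same reason no replicate was left out. Depth limits the shares of cells: HOXA13 was seen in 45.3% of HOXD-positive cells at full depth and 27.8% at 1500 UMIs.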
